A study of Mus musculus with 144 samples.

Results

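The wells described here are 22 single wells, labelled as retinal microglia, taken 4 days after optic nerve crush. Gpr84 was found in 12 of them, the wells with Gpr84, and not in the other 10, the wells without Gpr84, out of 144 wells in the series. They were chosen from the 54 day 4 wells by their own values. A well was kept where at least 50000 reads could be recovered from its FPKM values, which left 24 wells. A further 2 wells were left out because S100a8 and S100a9, genes abundant in neutrophils, both reached 1000 RPM. RPM is the reads of a gene per 1000000 reads of the well. The rest were split at a Gpr84 level of 50 RPM, and the split lay in a wide gap: the lowest well with Gpr84 held 91.5 RPM and the highest well without it 0.881 RPM. Because Gpr84 made the split, its own levels are a description of the groups and not a result.

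The study sorted cells from the retina by fluorescence into 3 plates of 48 wells, amplified the RNA of each well and sequenced it. By their titles, 54 wells came from uncrushed retinas, 36 from day 2 and 54 from day 4 after crush. All 22 wells, with and without Gpr84 alike, came from Iba1-EGFP mice on a C57BL/6 background aged 20 to 22 months with a crushed nerve. EGFP under the Iba1 (Aif1) promoter marks microglia and also other macrophages. The treatment label of the 10 plate 1 wells among them names day 2, against their titles, and the titles were used. No label names an animal, so the wells of a group may share animals and each group counts as 1 sample. No test was therefore made, and every value below describes these wells only.

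Gpr84 is a G protein-coupled receptor that responds to medium-chain fatty acids. It couples to inhibitory G proteins, is scarce in resting myeloid cells and is induced in them by inflammatory stimuli. Microglia are the resident macrophages of the retina. After optic nerve injury they can release tumour necrosis factor (Tnf) and interleukin 1 alpha (Il1a), which act on astrocytes and neurons. The series title ties Gpr84 to Tnf and Il1a through the ROCK pathway, in which the small GTPase RhoA switches on the kinases encoded by Rock1 and Rock2.

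Promoters are shown for the gene that made the split, for both cytokines of the title, and for the genes of the later result whose promoters held a match to the AP-1-like sequence TGANTCA. AP-1 is the dimer of Fos and Jun proteins, whose genes were among those with large differences. Each run is the RefSeq promoter on GRCm38.p6, from 250 bases before the start of the gene to 50 after it, read 5′ to 3′ on the gene's strand, with matches in capitals. The searched letters were TGANTCA, the CRE sequence TGACGTCA and a kB-like motif, on both strands.
Gpr84, chr15:103310389-103310688, minus strand: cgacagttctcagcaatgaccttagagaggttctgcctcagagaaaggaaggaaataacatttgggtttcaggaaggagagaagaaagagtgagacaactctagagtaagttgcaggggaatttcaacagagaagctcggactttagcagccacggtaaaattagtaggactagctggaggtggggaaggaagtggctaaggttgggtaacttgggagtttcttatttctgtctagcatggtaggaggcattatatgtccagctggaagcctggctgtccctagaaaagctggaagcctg
Tnf, chr17:35201958-35202257, minus strand: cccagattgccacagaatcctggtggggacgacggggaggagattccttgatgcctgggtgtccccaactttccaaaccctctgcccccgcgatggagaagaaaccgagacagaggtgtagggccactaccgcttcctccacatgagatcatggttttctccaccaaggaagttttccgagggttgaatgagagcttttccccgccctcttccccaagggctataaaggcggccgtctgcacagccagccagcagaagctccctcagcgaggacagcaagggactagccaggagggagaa
Il1a, chr2:129309923-129310222, minus strand: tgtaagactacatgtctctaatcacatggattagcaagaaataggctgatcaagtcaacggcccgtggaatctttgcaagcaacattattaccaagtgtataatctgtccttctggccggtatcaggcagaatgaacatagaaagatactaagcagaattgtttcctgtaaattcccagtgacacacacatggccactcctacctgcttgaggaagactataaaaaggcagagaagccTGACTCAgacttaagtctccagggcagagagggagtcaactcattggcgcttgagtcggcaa
F11r, chr1:171437311-171437610, plus strand: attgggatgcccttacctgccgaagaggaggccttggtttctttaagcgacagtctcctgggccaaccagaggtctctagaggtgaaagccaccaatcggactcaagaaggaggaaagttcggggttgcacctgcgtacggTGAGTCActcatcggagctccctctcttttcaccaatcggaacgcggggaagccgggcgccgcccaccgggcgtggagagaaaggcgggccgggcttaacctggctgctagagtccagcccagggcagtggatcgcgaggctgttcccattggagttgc
Hspa5, chr2:34771840-34772139, plus strand: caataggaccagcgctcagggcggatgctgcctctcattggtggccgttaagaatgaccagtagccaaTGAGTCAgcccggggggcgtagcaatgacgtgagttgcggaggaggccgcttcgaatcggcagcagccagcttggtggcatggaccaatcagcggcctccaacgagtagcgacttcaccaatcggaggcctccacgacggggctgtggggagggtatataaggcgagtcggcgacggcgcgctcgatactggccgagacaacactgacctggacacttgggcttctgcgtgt
The match in Il1a lay at bases -12 to -6 from the gene start, that in F11r at -109 to -103 and that in Hspa5 at -182 to -176. Of all 32851 promoters of this length, 7.81% held TGANTCA, 1.79% held TGACGTCA and 5.56% held the kB-like motif. The windows of Gpr84 and Tnf held none of these motifs. Of the 12 genes with the highest differences named below, 10 had a promoter in the table and 4 of these held TGANTCA (Acer3, with more than 1 listed start, besides the 3 shown), while 0 held either of the others. Gpr84 is 1 of those 10. Of the early response genes 20 had a promoter in the table, of which 0 held TGANTCA, 3 held TGACGTCA and 0 held the kB-like motif. Of the chemokines 10 had one, of which 3 held TGANTCA, 0 held TGACGTCA and 4 held the kB-like motif. A match is a description of letters only.

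The wells differed in how many genes were seen. Wells with Gpr84 held 3247, 8441 and 10849 genes with a read (lowest, median and highest), against 1266, 3275 and 8451 in wells without it. After every well was thinned to 50000 reads, the numbers were 1660, 4583 and 5762 genes with Gpr84 and 608, 1399.5 and 3617 without. Recovered reads were 275472 to 5551423 with Gpr84 (median 897589.5) and 82047 to 8023493 without (median 648412). On this scale, 1 read is worth 12.2 RPM in the shallowest well. Wells with Gpr84 were 5 on plate 1 and 7 on plate 2; wells without were 5 on plate 1, 3 on plate 2 and 2 on plate 3. What the number of genes reflects in these cells was not tested, so most results are also given for the 6 wells with and 5 wells without Gpr84 that share the range of 3247 to 8451 genes, called matched wells below. A value in parentheses after a difference is the same difference in matched wells.

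**Figure D1:**
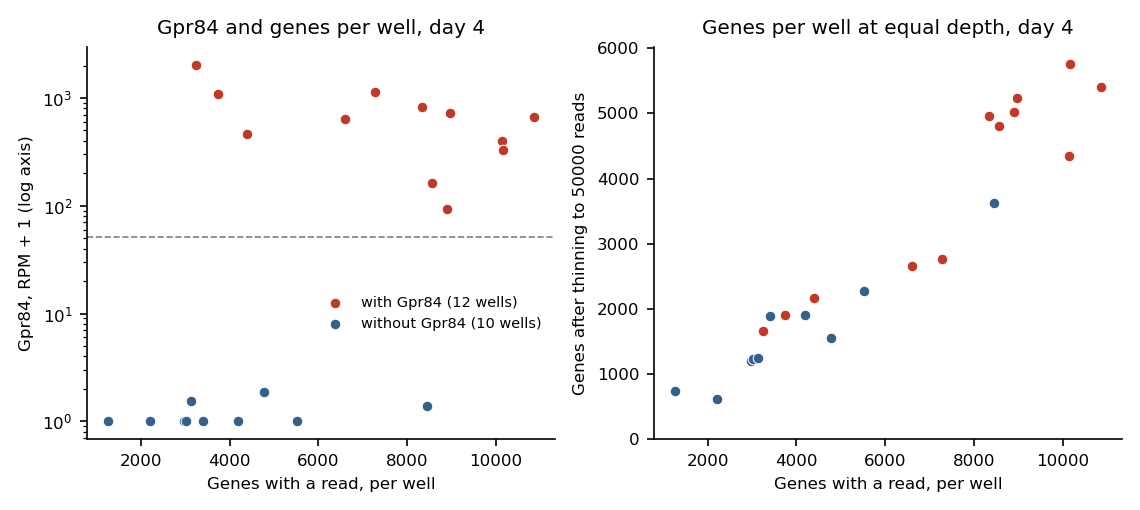
Left: Gpr84 level (RPM + 1, log axis) against the number of genes with a read in each day 4 well, with the 50 RPM split as a dashed line. Right: genes per well after thinning to 50000 reads against genes per well as deposited; each point is 1 well. Wells with Gpr84 (red) reach 10849 genes, wells without (blue) 8451, and 6 red and 5 blue wells share the range of 3247 to 8451.

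The cells were checked against markers. Of 11 microglia markers, 6 to 11 (median 10.5) were found, meaning at 50 RPM or more, in wells with Gpr84 and 2 to 10 (median 5.5) in wells without. The summed level of these markers was 25263 to 52077 RPM with Gpr84 and 427 to 39413 RPM without. Markers of T cells, natural killer cells, erythrocytes, pericytes and endothelium were found in no well. At most 2 of 12 neutrophil markers were found in a well with Gpr84 and at most 1 in a well without, their summed levels were 6.48 to 983 RPM with Gpr84 and 0 to 2152 RPM without, and the neutrophil surface gene Ly6g stayed at 0 RPM in every well with Gpr84. Csf3r, a growth factor receptor of the same list, was found in 8 of 12 wells with Gpr84 (median 131 RPM) and 2 of 10 without (median 1.10 RPM), and S100a8 in 2 of 12 with Gpr84 and 1 of 10 without. At least 1 of 8 Muller glia markers was found in 10 of 12 wells with Gpr84 and 1 of 10 without, with median summed levels of 345 RPM with Gpr84 and 2.53 RPM without. Glul was found in 9 of 12 wells with Gpr84 and 0 of 10 without, and Apoe in 4 of 12 with Gpr84, up to 5177 RPM, and 0 of 10 without, whereas Rlbp1 and Aqp4 were at 0 RPM in all wells. Of 7 cone genes, Pde6h was found in 11 of 12 wells with Gpr84 and 5 of 10 without and Gngt2 in 9 of 12 with Gpr84 and 3 of 10 without, whereas Arr3 and Gnat2 were at 0 RPM in all wells. Pde6h shares 136 exon bases with Arhgdib on the other strand, so reads of that stretch cannot be told apart here. Ighm, an immunoglobulin heavy chain gene, was found in 10 of 12 wells with Gpr84 and 3 of 10 without, and Cd79b of the same B cell list in 2 of 12 with Gpr84 and 0 of 10 without, whereas Cd79a and Ms4a1 were at 0 RPM in all of them. At least 1 of 8 monocyte markers was found in 4 of 12 wells with Gpr84 and 1 of 10 without. Plac8 was found in 2 and Ms4a4c in 3 of 12 wells with Gpr84, up to 215 and 124 RPM, and both in 0 of 10 without. A border macrophage marker was found in 2 of 12 wells with Gpr84 and 1 of 10 without. The part of these other markers in the results was not tested.

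A pair of wells without Gpr84 stood apart, with 2 of 11 microglia markers each. One of them, plate 1 F1, held 42675 RPM of Chil3, 18291 RPM of Fn1 and 4608 RPM of Pf4, genes of monocytes and border macrophages. These were 2 of 8 monocyte markers and 1 of 8 border macrophage markers. Most of both lists were not found in it, and Ly6c2, Plac8 and Lyve1 were at 0 RPM in every well without Gpr84. With 2 of 11 microglia markers it went against its microglia label, but which cell it held was not tested. The other, plate 3 F6, was the well with 1266 genes. Plate 1 F1, at 5510 genes, was among the 5 matched wells without Gpr84. So was plate 1 F5, at 4778 genes, with 4 of 11 microglia markers. Matched values were not computed without these wells, so their part in the matched differences was not tested. Values that moved by over 1.5 times without a single well, or in the 12 wells with and 7 wells without Gpr84 that held at least 5 microglia markers, are given beside the results.

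Over the 5119 genes found in at least 3 of the 22 wells, 2785 (54.4%) were higher in wells with Gpr84 by 1 or more on the log2 scale, a 2-fold difference, and 36 (0.703%) were lower by as much; the lower count was 67 without plate 3 F6 and 60 without plate 3 G6. The measure is the mean of log2(RPM + 10) in wells with Gpr84 minus that in wells without; the added 10 RPM makes it understate differences of low genes. The median over all genes was 1.10. In matched wells, 25.1% of genes were higher and 13.6% lower by 1 or more, with a median of 0.21. Thinning to 50000 reads gave 52% higher and 0.879% lower, and thinning towards the 1266 genes of the poorest well 18.5% and 5.72%. That thinning left 1261 to 1272 genes in 21 wells but 1031 in the poorest, plate 3 F6, so the wells were not fully equal. It also kept a median of 2590 reads in wells with Gpr84 and 38571 in wells without, so depth was unequal. The 5 pairs of wells within 1.5-fold in genes per well gave 24.2% and 14.5%, genes per well as a term in a linear fit gave 23.5% and 10%, and the log2 ratio of mean RPM gave 45.8% and 15.9%. Within plate 1, 46.6% were higher and 5.51% lower; within plate 2, 55.5% and 9.04%. These shares are of genes that passed the 50 RPM filter. A gene can pass it through wells with Gpr84 alone, so a higher value is partly built in for such a gene and its list. The shares over all wells and in matched wells are called background below, and they carry the same limit. Over the 19591 genes with any read, 15% were higher and 0.281% lower by 1 or more, with a median of 0.11. A gene list with a median near 1.10 over all wells, or near 0.21 in matched wells, therefore did what most of the 5119 genes compared did. Only 3 genes (0.0586% of those compared) did not overlap between the groups: Gpr84, Gm49482 and Acer3. Gpr84 made the split, and for Acer3 the gap was only 2.87 against 2.27 RPM, under the 10 RPM added. Gm49482 is annotated as antisense to Gpr84 and shares 681 exon bases with it; strand in the counting is not given in the sources used here, so their reads cannot be told apart. A set of 280 genes (5.47%), Gpr84 among them, were found in at least 50% of the wells with Gpr84 and in 0 wells without it.

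**Figure D2:**
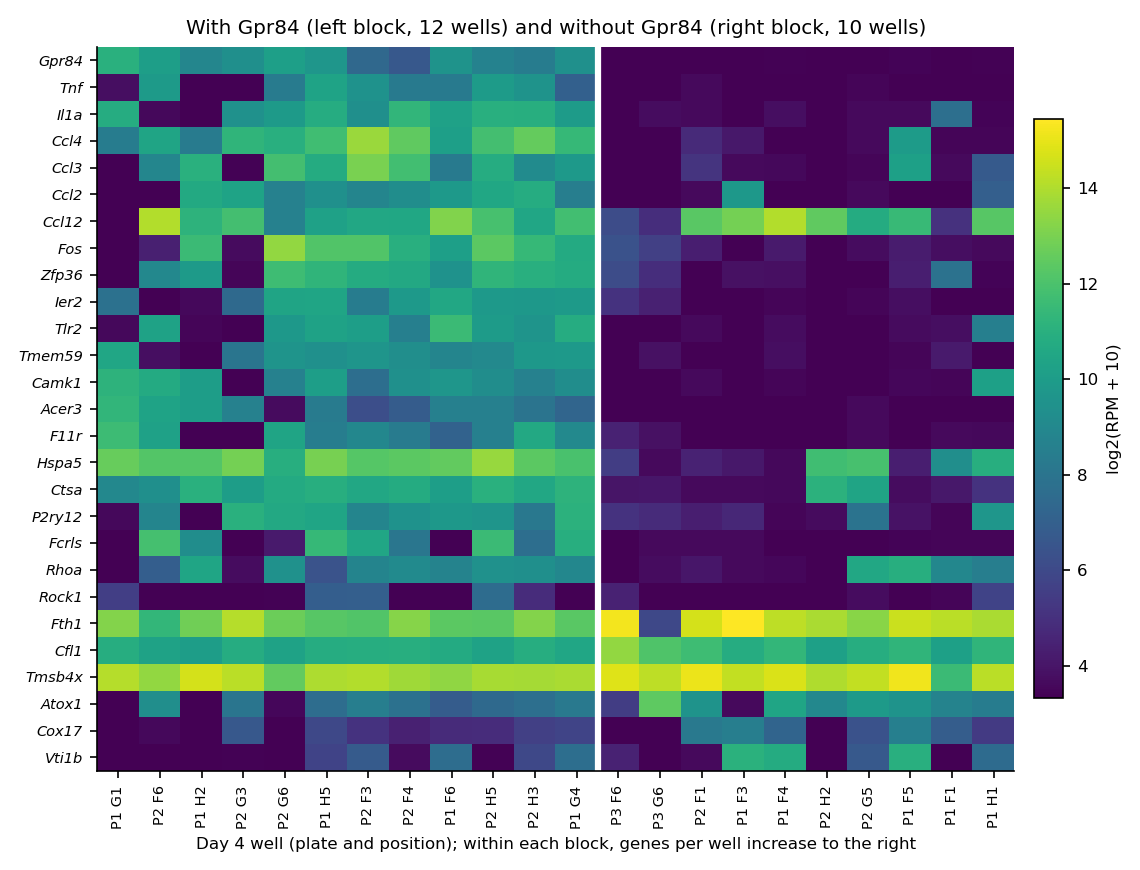
Levels of 27 named genes, as log2(RPM + 10) in colour, in each day 4 well. Wells with Gpr84 stand left of the white line and wells without it right, each ordered by genes per well. Ccl4 is above 50 RPM in all 12 wells on the left and in 1 on the right, whereas Ccl12, Cfl1 and Tmsb4x are high on both sides.

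Tnf and Il1a, the cytokines of the title, were both found mainly in wells with Gpr84. Tnf (chr17:35199381-35202007) was at 0, 308 and 1284 RPM in wells with Gpr84 (lowest, median and highest), against 0, 0 and 2.51 RPM in wells without. It was found in 9 of 12 wells with Gpr84 (75%, exact Clopper-Pearson 95% interval 42.8 to 94.5%) and in 0 of 10 without. A count of 0 allows 3 wells of the total, here a share of up to 30%, and the upper end of the exact interval is 30.8%. Il1a (chr2:129299610-129309972) was at 0, 1103 and 2501 RPM with Gpr84 and 0, 2.24 and 204 RPM without. It was found in 10 of 12 wells with Gpr84 (83.3%, 51.6 to 97.9%) and in 1 of 10 without (10%, 0.253 to 44.5%). These intervals and limits cover counting error over wells only. The single well without Gpr84 that held Il1a was plate 1 F1, at 204 RPM, and leaving it out gives 0 of 9. The groups overlapped for both genes, since 3 wells with Gpr84 lacked Tnf and 2 lacked Il1a.

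The differences were 4.26 for Tnf and 5.27 for Il1a, against 3.15 and 3.64 in matched wells. In those wells Tnf was found in 3 of 6 with Gpr84 and 0 of 5 without, and Il1a in 4 of 6 with Gpr84 and 1 of 5 without. That well without Gpr84 was plate 1 F1. Within the 12 wells with Gpr84, 8 held both cytokines, 2 held Il1a alone, 1 held Tnf alone and 1 held neither. The well with the highest Gpr84, at 2030 RPM, held 1809 RPM of Il1a and 3.87 RPM of Tnf. The well with the lowest, at 91.5 RPM, held both, at 2501 RPM of Il1a and 295 RPM of Tnf.

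Of 16 cytokine genes listed, 6 were compared and 5 of them were higher by 1 or more over all wells (background 54.4%), with a median of 1.47. In matched wells 2 were higher (background 25.1%), 2 were lower (background 13.6%) and the median was 0.71. Without plate 1 F1 the median over all wells was 1.94. Il18, a cytokine cut to its active form by caspase 1, was found in 5 of 12 wells with Gpr84 and 0 of 10 without. Ebi3, a subunit of interleukin 27 and interleukin 35, was found in 4 of 12 wells with and 0 of 10 without Gpr84. Tnf, Il18 and Ebi3 therefore passed the filter through wells with Gpr84 alone, so a higher value was partly built in. Osm, which encodes oncostatin M, was found in 3 of 12 wells with and 1 of 10 without Gpr84, and its difference was 0.35 over all wells and -1.57 in matched wells. Il1b, the other interleukin 1 gene, was found in 1 of 12 wells with Gpr84 and 1 of 10 without.

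Ccl4, Ccl3 and Ccl2 had large differences among the chemokines, whereas Ccl12 did not. Ccl4, a chemokine that attracts monocytes and T cells, was at 318, 2614 and 12742 RPM with Gpr84 and 0, 1.21 and 988 RPM without. It was found in every one of the 12 wells with Gpr84 and in 1 of 10 without, and its difference of 6.83 was the highest of all 5119 genes; it was 5.41 in matched wells. Ccl3, a close relative of Ccl4, was at 0, 1318 and 8181 RPM with Gpr84 and 0, 2.23 and 1175 RPM without, a difference of 4.70 (2.72 in matched wells). Ccl2, a monocyte attractant that binds Ccr2, was at 0, 635 and 1792 RPM with Gpr84 and 0, 0 and 858 RPM without, a difference of 4.23 (3.50 in matched wells). Ccl12, a related mouse ligand of Ccr2, was instead found in 11 of 12 wells with Gpr84 and 8 of 10 without. Its levels were 0, 1908 and 16699 RPM with Gpr84 and 20.3, 3931 and 17027 RPM without, so the groups overlapped over most of their range and the difference was 0.39, or -0.55 in matched wells.

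Of the 11 chemokine genes compared, 8 were higher by 1 or more over all wells (background 54.4%), with a median of 2.21. In matched wells 5 were higher (background 25.1%) and 3 lower (background 13.6%), and the median was 0.01. The interferon-induced Cxcl10 was found in 5 of 12 wells with Gpr84 and 0 of 10 without. On the lower side in matched wells were Ccl9 (-2.64), Ccl5 (-2.02) and Cxcl16 (-1.13).

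**Figure D3:**
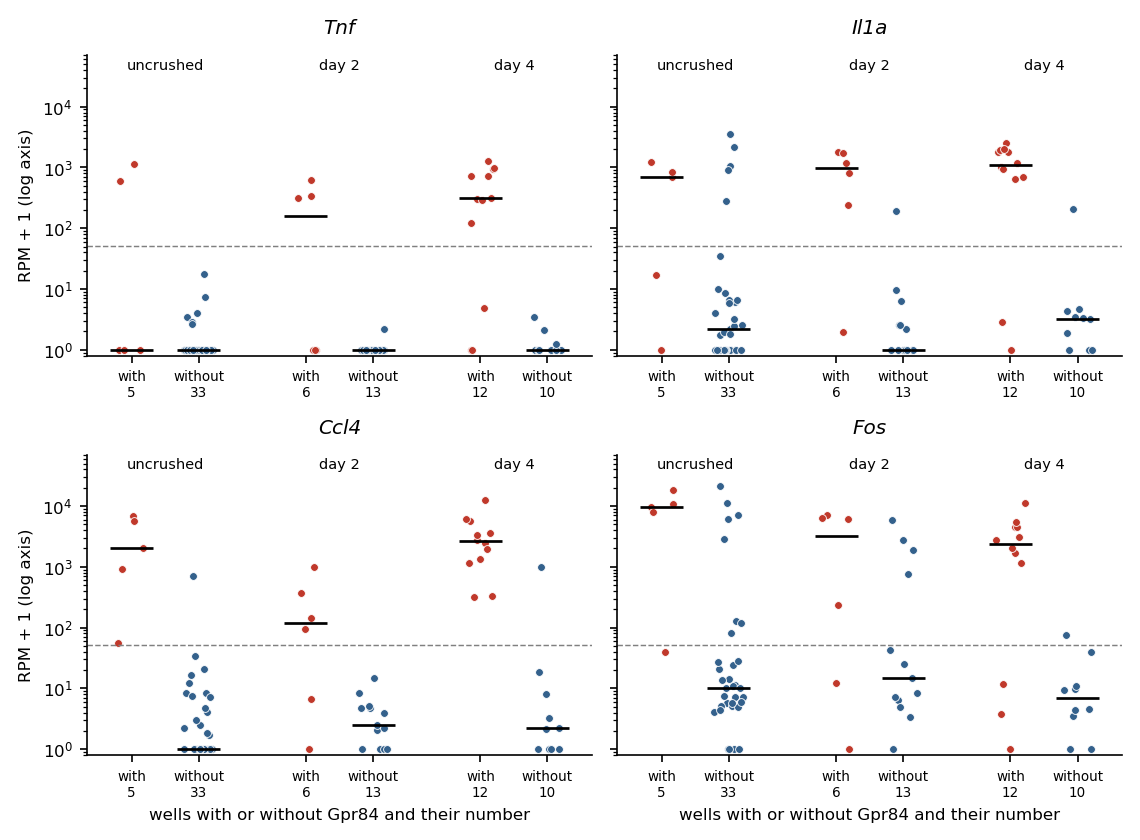
Levels of Tnf, Il1a, Ccl4 and Fos (RPM + 1, log axis) in wells with Gpr84 (red) and without (blue), from uncrushed, day 2 and day 4 retinas; each point is 1 well, the black bar is the median and the dashed line marks 50 RPM. Numbers of wells stand under each group. Tnf is above the line in 9 of 12 day 4 wells with Gpr84, and in 0 wells without it in any of the 3 groups.

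Of 19 early response genes compared, 16 were higher by 1 or more over all wells (background 54.4%) and 0 lower (median 3.05). In matched wells 13 were higher (background 25.1%), 0 were lower (background 13.6%) and the median was 1.52. Fos, a subunit of AP-1 and a gene induced within minutes of many stimuli, was at 0, 2383 and 11307 RPM in wells with Gpr84 and 0, 6 and 73.1 RPM in wells without. It was found in 9 of 12 wells with Gpr84 and 1 of 10 without, a difference of 5.45 (4.36 in matched wells). Zfp36, which encodes tristetraprolin, a protein that speeds the decay of Tnf mRNA, was at 0, 1655 and 3279.8 RPM with Gpr84 and 0, 4.51 and 228 RPM without, a difference of 4.93 (3.64). Ier2, another immediate early gene, was found in 10 of 12 wells with Gpr84 and 0 of 10 without (4.78, and 3.73 in matched wells).

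The other members ranged more widely. Egr1, a zinc finger factor, differed by 4.42 (2.89 in matched wells), Junb by 4.09 (2.20), Klf6 by 4.13 (2.92) and Btg2 by 4.14 (2.64). Atf3, a stress-induced repressor, differed by 3.95, and Dusp1, a phosphatase that switches off MAP kinases, by 3.93; their matched values were 1.43 and 1.39. Nr4a1 showed little of this, at 0.20 and -0.69. Plate 1 F1 had the highest mean level of this list among wells without Gpr84, and without it the median was 3.50.

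Of the list of inducible receptors, 7 were compared, and 1 of these is Gpr84, which made the split and is left out here. All of the other 6 were higher by 1 or more over all wells (background 54.4%, median 3.11), and 4 in matched wells (background 25.1%, median 1.44). Hcar2, the receptor for hydroxybutyrate and niacin, was at 0, 354 and 824 RPM with Gpr84 and 0, 0.125 and 4.78 RPM without. It was found in 8 of 12 wells with Gpr84 and 0 of 10 without, a difference of 3.65 (1.95 in matched wells). Gpr183, the oxysterol receptor, was found in 8 of 12 wells with and 0 of 10 without Gpr84 (2.92, matched 1.70). The complement receptors C5ar1 and C3ar1 differed by 3.30 and 3.30 over all wells but by 1.19 and 0.23 in matched wells. P2ry6, a receptor for the nucleotide UDP, differed by 2.78 (1.81).

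Genes of the G proteins through which such receptors act lay near the median of all genes over all wells. Of 19 compared, 11 were higher by 1 or more over all wells (background 54.4%) and 0 lower. The median was 1.2 over all wells and 0.71 in matched wells. Gnai2, an inhibitory alpha subunit, was found in 11 of 12 wells with Gpr84 and 5 of 10 without, with a difference of 2.44 that was 0.36 in matched wells. Gnai3, a second inhibitory subunit, was found in 4 of 12 wells with and 0 of 10 without Gpr84 (1.65, matched 1.28). Gna13, which couples receptors to RhoA through exchange factors, was found in 7 of 12 wells with and 1 of 10 without Gpr84 (2.36, matched 1.0). Rgs2, which shortens G protein signals, differed by 2.6 (2.35 in matched wells), but by 0.02 within plate 1 and 4.68 within plate 2.

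The RhoA and ROCK genes did not keep one direction. Rhoa was at 0.329, 457 and 1387 RPM in wells with Gpr84 and 0, 5.14 and 1945 RPM in wells without, and was found in 10 of 12 wells with and 4 of 10 without Gpr84. Its difference was 1.84 over all wells but -1.74 in matched wells, where it was found in 4 of 6 wells with Gpr84 and 4 of 5 without. Rock1 was low in both groups, at 0, 0.205 and 182 RPM with Gpr84 and 0, 0 and 43.5 RPM without, and was found in 3 of 12 wells with and 0 of 10 without Gpr84; its difference was 0.87 (0.39 in matched wells). Rock2 was found in 1 of 12 wells with Gpr84 and 2 of 10 without, a difference of -0.45 (-1.65), or -0.08 without plate 1 F1, -0.05 without plate 1 H1 and -0.71 without plate 2 F4. Transcript levels of this kind say nothing of the activity of these enzymes.

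Of 16 RhoA and ROCK signalling genes compared, 11 were higher by 1 or more (background 54.4%), with a median of 1.54. In matched wells 6 were higher (background 25.1%), 3 were lower (background 13.6%) and the median was 0.36. Rhob, an inducible small GTPase, was at 30.1, 193 and 428 RPM with Gpr84 and 0, 0 and 576 RPM without, a difference of 2.84 (1.84 in matched wells). Arhgef2, a microtubule-bound activator of RhoA, differed by 2.48 (1.63). Ppp1r12a, the myosin phosphatase subunit that ROCK inhibits, was found in 5 of 12 wells with and 0 of 10 without Gpr84 (2.07, matched 2.19). Cfl1, which encodes the actin-severing cofilin, was found in every well and differed by -0.71 (-0.23), or -0.47 without plate 3 F6.

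Genes of resting microglia were higher with Gpr84, not lower. Of 21 homeostatic genes compared, 18 were higher by 1 or more (background 54.4%) and 0 lower over all wells (median 2.53). In matched wells 9 were higher (background 25.1%) and 1 lower (background 13.6%), with a median of 0.92. The median in wells with at least 5 microglia markers was 1.80. Part of this list served to check the cells, and both wells that stood apart are among the wells without Gpr84. P2ry12, the ADP receptor that guides resting processes, was at 0, 746 and 2196 RPM with Gpr84 and 1.06, 12.8 and 826 RPM without, a difference of 3.62 (2.23 in matched wells). Fcrls was found in 8 of 12 wells with Gpr84 and 0 of 10 without (4.50, matched 3.82). Tmem119, Cx3cr1 and Csf1r differed by 2.53, 2.03 and 1.93 over all wells and by 0.27, 0.60 and 0.21 in matched wells.

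Damage-associated genes, known from microglia around plaques and lesions, showed both directions once genes per well were matched. Of 21 compared, 18 were higher by 1 or more over all wells (background 54.4%, median 2.14). In matched wells 10 were higher (background 25.1%) and 4 lower (background 13.6%), with a median of 0.65. Trem2, a lipid-sensing receptor of microglia, was at 624, 1158 and 3169 RPM with Gpr84 and 2.12, 222 and 1432 RPM without, a difference of 3.55 (2.34 in matched wells). Lyz2, the lysozyme of myeloid cells, differed by 3.59 (1.64), and Cd9, a tetraspanin, by 3.71 (0.31). Clec7a, a receptor for fungal glucans, differed by 1.0 over all wells and -2.32 in matched wells. Spp1, which encodes osteopontin, was found in 4 of 12 wells with and 1 of 10 without Gpr84 and differed by 1.47 over all wells but -1.93 in matched wells. Over all wells but 1, the value for Spp1 was 2.43 without plate 1 F1, 0.94 without plate 2 F3 and 0.74 without plate 2 H5, and it was 2.35 in wells with at least 5 microglia markers.

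Complement genes held nearly the same median in both sets of wells, 1.89 over all wells and 1.82 in matched wells. Without plate 1 F1 the median over all wells was 1.59. Of 9 complement genes compared, 8 were higher by 1 or more over all wells (background 54.4%). In matched wells 6 were higher (background 25.1%) and 1 lower (background 13.6%). C1qb, a chain of the first complement component, was at 4070.1, 9414 and 13394 RPM with Gpr84 and 29.3, 5384 and 16271 RPM without, so wells without Gpr84 held both the lowest and the highest value. Its difference was 1.89 (2.21), and within plate 2 it was 0.13. C1qa and C1qc, the other chains, differed by 1.70 and 1.18, and within plate 2 by -0.36 and -0.25. Their median levels were 2754 and 6336 RPM with Gpr84 and 2556 and 5596 RPM without. C1qa, C1qb and C1qc also served to check the cells, and both wells that stood apart are among the wells without Gpr84. Plate 1 F1 and plate 1 F5, poor in microglia markers, are among the matched wells without Gpr84. Itgam, the alpha chain of complement receptor 3, differed by 3.55 (3.45), but shares 3450 exon bases with another annotated gene on its strand. Of 17 phagocytic and Fc receptor genes, 12 were higher by 1 or more (background 54.4%, median 1.56), against 9 in matched wells (background 25.1%, median 1.03).

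Lysosomal genes were 25 of 26 higher by 1 or more over all wells (background 54.4%), with a median of 2.27. In matched wells 15 of 26 were higher (background 25.1%) and 2 lower (background 13.6%), with a median of 1.34. Ctsa, a serine carboxypeptidase that protects lysosomal sialidase, was at 499, 1615 and 2273 RPM with Gpr84 and 2.12, 6.44 and 2169 RPM without, a difference of 5.11 (3.31 in matched wells). It shares exon bases with Pltp and Neurl2 on the other strand. Ctsc, the protease that activates granule proteases, was at 1027, 2255 and 6705 RPM with Gpr84 and 0, 6.48 and 4001 RPM without (4.67, matched 3.43). Grn, which encodes progranulin, was at 14.5, 3189 and 6224 RPM with Gpr84 and 2.64, 17.2 and 3252 RPM without (4.25, matched 2.79). Lamp2 went the other way in matched wells, at -2.65 against 1.55 over all wells.

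Chaperones of the endoplasmic reticulum were all higher over all wells, 18 of 18 by 1 or more (background 54.4%), with a median of 2.96. In matched wells 8 were higher (background 25.1%), 1 was lower (background 13.6%) and the median was 0.83. Hspa5, the main chaperone of the compartment, was found in 12 of 12 wells with Gpr84 and 4 of 10 without. It was at 1921, 5306 and 12173 RPM with Gpr84 and 2.12, 24.5 and 3868 RPM without, a difference of 5.44 (2.65 in matched wells). Pdia3, a disulfide isomerase, differed by 4.06 over all wells and 0.60 in matched wells, and Sec61a1, the channel of the translocon, by 3.98 and 2.86.

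The remaining lists had lower medians in matched wells than over all wells. Glycolysis went to 0.07 in matched wells, against 2.01 over all wells, and oxidative phosphorylation to 0.20 against 1.76. The proteasome list stood at 0.24 against 1.96, antigen presentation at 0.23 against 1.76 and fatty acid handling at 0.18 against 1.40. Translation factors stood at -0.36 against 1.39, hypoxia and redox genes at -0.49 against 1.17, and ribosomal proteins at -0.18 against 0.60. The value of 0.60 was 0.19 without plate 3 F6 and 0.27 in wells with at least 5 microglia markers, where oxidative phosphorylation stood at 1.2. Interferon response genes had medians of 1.65 over all wells and 0.74 in matched wells, Toll-like receptors and adaptors 1.53 and 0.77, NF-kB genes 1.10 and 0.38, and proliferation genes 1.23 and 0.48.

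Some members of these lists kept a large difference in matched wells. Pcna, the sliding clamp of DNA replication, was found in 7 of 12 wells with Gpr84 and 0 of 10 without, at 3.47 over all wells and 4.10 in matched wells, while the proliferation marker Mki67 was found in 3 of 12 wells with and 0 of 10 without Gpr84. Cd83 and Cd86, surface molecules of activated antigen-presenting cells, differed by 3.91 and 3.33 (2.72 and 2.31 in matched wells). Tlr2, a receptor for bacterial lipoproteins, differed by 4.46 (2.27), and Cd14, its co-receptor, by 4.03 (2.28). Nfkbia, the inhibitor that NF-kB itself induces, differed by 4.19 (1.79). Hmox1, the heme-degrading oxygenase, differed by 3.15 (2.83). Pgk1, a glycolytic enzyme, differed by -0.73 over all wells and -3.44 in matched wells, where it was found in 0 of 6 wells with Gpr84 and 3 of 5 without.

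**Figure D4:**
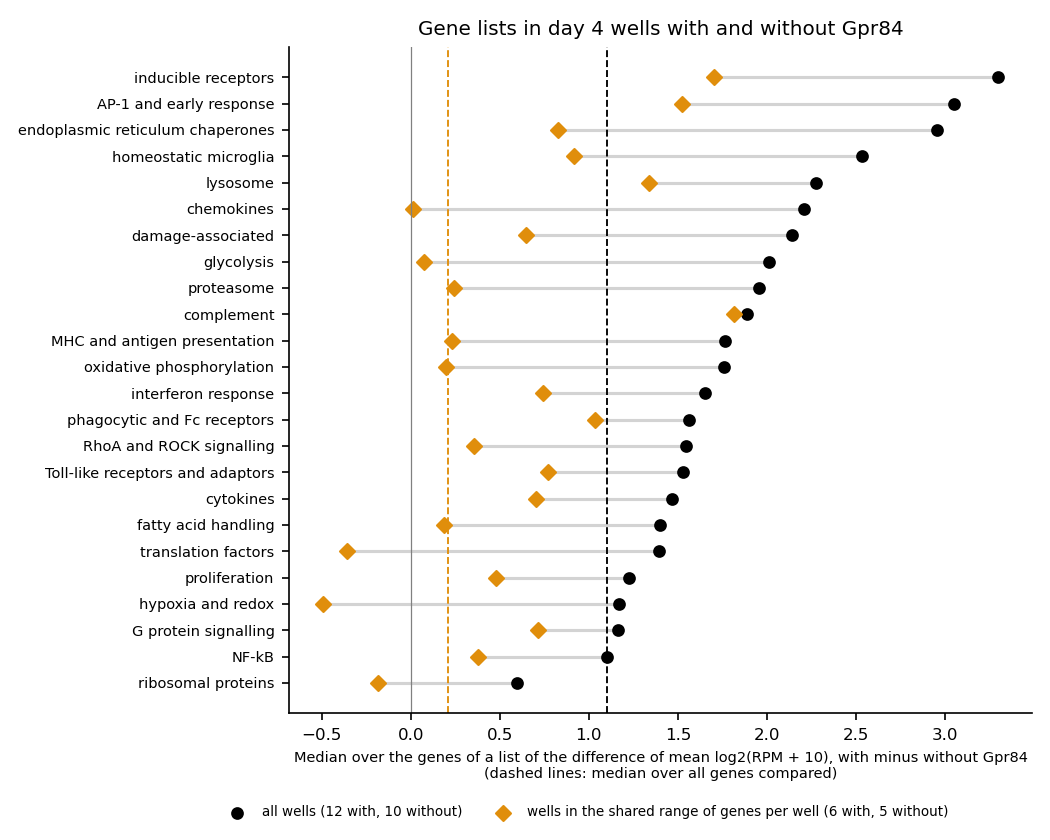
Median difference (mean log2(RPM + 10) with minus without Gpr84) over the genes of each of 24 lists, in all wells (black) and in matched wells (orange); the dashed lines are the medians over all 5119 genes, 1.10 and 0.21. The list of inducible receptors includes Gpr84, and its other 6 genes have medians of 3.11 and 1.44. Early response genes stand at 3.05 in all wells and complement genes at 1.82 in matched wells.

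Of the other genes with the highest differences, Acer3, F11r, Tmem59 and Camk1 were found almost only in wells with Gpr84 at day 4. Acer3, an alkaline ceramidase, was at 2.87, 348 and 2519 RPM with Gpr84 and 0, 0 and 2.27 RPM without. The groups did not overlap, but the gap between them lay near the floor. Acer3 was found in 11 of 12 wells with Gpr84, and its difference of 4.81 was 5.36 in matched wells. F11r, a junctional adhesion molecule, was at 0, 424 and 3179.8 RPM with Gpr84 and 0, 0.935 and 12.2 RPM without (4.76, matched 4.41). Tmem59, a membrane protein of the Golgi and endosomes, was at 0, 646 and 1449 RPM with Gpr84 and 0, 0.0312 and 8.19 RPM without (4.90, matched 3.90), and shares exon bases with Tceanc2 on the other strand. Camk1, a calcium-activated kinase, was at 0, 639.7 and 2297 RPM with Gpr84 and 0, 0.53 and 1167 RPM without (4.91, matched 4.23), and its 1 high well without Gpr84 was plate 1 H1. It shares exon bases with Ogg1 on the other strand.

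Few genes were lower with Gpr84 over all wells, and several of those named overlap another gene. Atox1, a copper chaperone, was at 0, 197 and 632 RPM in wells with Gpr84 and 2.39, 615 and 5609.8 RPM in wells without, a difference of -1.90 (-3.25 in matched wells). Cox17, which carries copper to cytochrome oxidase, was found in 2 of 12 wells with Gpr84 and 6 of 10 without (-1.38, matched -1.75). Fth1, the ferritin heavy chain, was found in every well, at 2594, 6036 and 17429 RPM with Gpr84 and 52, 18897 and 44398 RPM without. Its difference was -0.84 (-1.19), and the single low well without Gpr84 was plate 3 G6, without which the difference was -1.68. In wells with at least 5 microglia markers it was -0.37. Tmsb4x, which binds actin monomers, was at 5808, 14933 and 25415 RPM with Gpr84 and 3071, 20471 and 36953 RPM without (-0.45, matched -0.04), or -0.75 without plate 1 F1.

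Vti1b, a SNARE of endosomes, differed by -1.72 (-2.64 in matched wells), Zfp706 by -1.38 (-2.13) and Lamtor1, which anchors the Ragulator complex to lysosomes, by -0.97 (-2.75). The value for Lamtor1 was -0.48 without plate 2 F1 and -0.51 without plate 1 F3. BC004004 differed by -1.50 (-3.09), or -0.98 without plate 2 F1, and Tlcd1 by -1.46 (-1.28). Bcl2a1b, a survival gene with near-identical copies, differed by -0.60 (-1.59). It moved by over 1.5 times with any of 8 wells left out, between -0.22 without plate 2 F1 and -1.09 without plate 3 F6, so its size is not settled. In wells with at least 5 microglia markers BC004004 was at -2.92, Zfp706 at -2.49 and Bcl2a1b at -1.25. Vti1b overlaps exons of Arg2, Lamtor1 those of Lrrc51, Tlcd1 those of the ribosomal gene Rpl23a and Snx32 (-0.56, or -0.31 without plate 3 F6) those of Cfl1, each on the other strand. BC004004, Cox17 and Bcl2a1b share exon bases with Gm10045, Gm21987 and Gm29094 on their own strand, and Il1a (222 bases), Rhoa (324), Zfp36 (125) and Zfp706 (92) with transcripts on the other. Reads of such pairs cannot be told apart here.

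Some wells were rich in genes without Gpr84 or poor in genes with it. Plate 1 H1 had no Gpr84 above 0.374 RPM at 8451 genes and 8023493 reads, the deepest of the 22 wells. It held 0.249 RPM of Tnf, 0.872 RPM of Il1a, 1.25 RPM of Ccl4 and 2.49 RPM of Fos. It also held 10 of 11 microglia markers, 826 RPM of P2ry12, 1934 RPM of Hspa5 and 4955 RPM of Ccl12. Ccl2 at 119 RPM, Ccl3 at 99.2 RPM and Tlr2 at 366 RPM were also found in it, so it lacked Tnf, Il1a and Ccl4 but not every inflammatory transcript.

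At the other end were the 3 wells with Gpr84 that held the fewest genes. Plate 1 G1 held 2030 RPM of Gpr84 and 1809 RPM of Il1a at 3247 genes, with 327 RPM of Ccl4 and 0 RPM of Fos. Plate 2 F6 held 1094 RPM of Gpr84 and 951 RPM of Tnf at 3738 genes, with 1343 RPM of Ccl4 and 10.9 RPM of Fos. Plate 1 H2 held 457 RPM of Gpr84 at 4388 genes, with 318 RPM of Ccl4 and 3083 RPM of Fos, and 0 RPM of both Tnf and Il1a. These wells shared Ccl4, Hspa5 and Acer3 and differed in which of Tnf, Il1a and Fos they held.

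The same split was looked at in wells that the choice of day 4 wells did not use. Uncrushed retinas gave 5 wells with and 33 without Gpr84, and day 2 gave 6 with and 13 without. Of the genes compared there, 40.2% were higher and 2.69% lower by 1 or more in uncrushed wells (3826 genes, median 0.65), and 50% and 2.67% at day 2 (3631 genes, median 1.0). All 11 of the highest day 4 genes besides Gpr84 were higher by 1 or more in both, by 2.12 to 6.59 in uncrushed wells and 1.14 to 5.0 at day 2. With genes per well in the fit, 26.9% of genes were higher and 11.2% lower in uncrushed wells, and 26.9% and 17.8% at day 2. In that fit 9 of the 11 were higher by 1 or more in uncrushed wells and 7 of the 11 at day 2. The exceptions in uncrushed wells were Acer3 (0.52) and F11r (-0.43). At day 2 they were Zfp36 (0.28), Camk1 (-0.16), Acer3 (-1.0) and Tmem59 (-1.30). Among wells without Gpr84, Camk1 was found in 10 of 33 uncrushed wells and 6 of 13 at day 2. Of the 12 lowest, 1 was lower by 1 or more in uncrushed wells and 2 at day 2, and in that fit 3 and 4.

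With Gpr84 the uncrushed wells held Tnf in 2 of 5 cases, against 0 of 33 without it, which allows up to 9.09% by the same count of 3 wells (exact interval up to 10.6%). The day 2 wells held it in 3 of 6 cases with Gpr84, against 0 of 13 without, which allows up to 23.1% (exact interval up to 24.7%). Uncrushed wells held Il1a in 3 of 5 cases with Gpr84 and 5 of 33 without, and day 2 wells in 5 of 6 with Gpr84 and 1 of 13 without. The early response list had a median difference of 4.57 in uncrushed wells, 2.69 at day 2 and 3.05 at day 4, with 3.30, 1.39 and 1.57 once genes per well were in the fit. Fos itself reached 50 RPM in 4 of 5 uncrushed wells with Gpr84 and in 8 of 33 without. Ccl12, which barely differed at day 4, differed by 2.67 in uncrushed wells and 4.75 at day 2; whether these differ between the groups was not tested. Rhoa differed by 1.23 in uncrushed wells and 0.07 at day 2, Rock1 by 0.68 and 1.65, and Rock2 by 0.67 and 0.24.

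**Figure D5:**
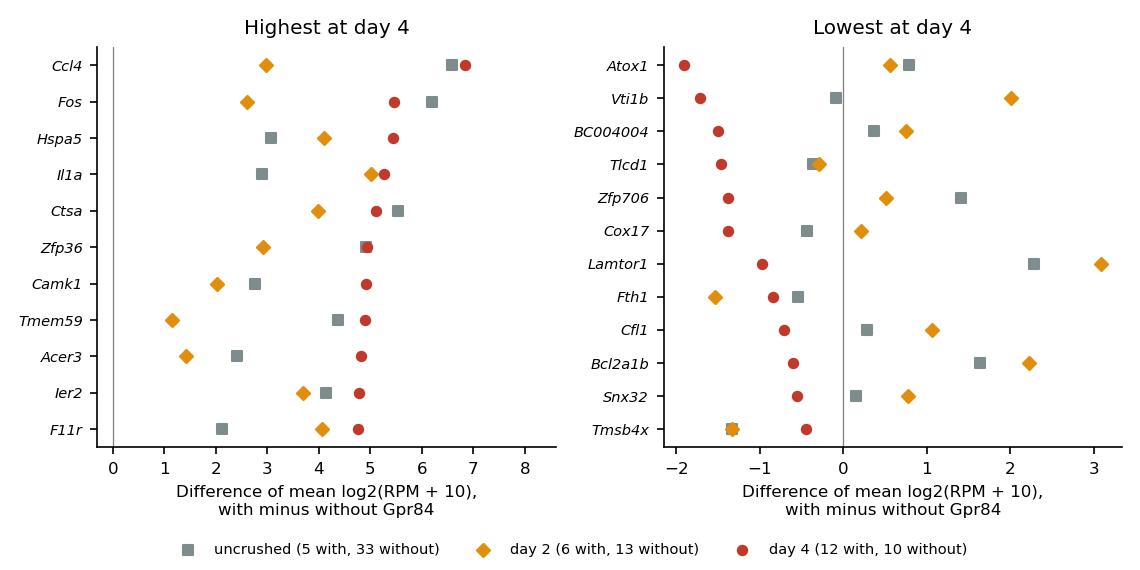
Difference of mean log2(RPM + 10), with minus without Gpr84, in uncrushed (grey squares), day 2 (orange diamonds) and day 4 wells (red circles) for the 11 highest genes besides Gpr84 and the 12 lowest genes at day 4. The 11 genes on the left lie at 1.14 or above in all 3 groups, whereas those on the right lie on both sides of 0.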

How the data were processed

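RNA of single sorted wells was amplified and sequenced, 144 wells on 3 plates. Per the submitters' processing notes, the tools were Trim Galore 0.4.4, Trimmomatic 0.36, cutadapt 1.16, STAR 2.7.2b and featureCounts 1.6.1, with the builds GRCm38.p6 and mm10. The authors deposited FPKM values for 55364 genes, and strand and multi-mapping settings are not given in the sources used here.

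FPKM times gene length over 1000 gave RPM, a gene's reads per 1000000 reads of the well. Reads per well were taken as 1000000 over the most frequent positive RPM, as if that value were 1 read. Only 36.6% of values under 100 such reads came out whole within 0.01, so no count model was used. Wells with under 50000 reads were left out. Differences are of mean log2(RPM + 10), and genes compared reached 50 RPM in at least 3 wells. Wells are not replicates, as no label names an animal, so no test was made. Shares have exact Clopper-Pearson 95% intervals.

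Named genes were those of the title, the 12 highest and 12 lowest differences among eligible genes, and up to 3 per list; other list members were named after their values were seen. The members, the 24 lists and the rules were chosen with earlier results of these data known. Alternatives changed depth, genes per well, pseudocount, filter, scale, plate, wells and thresholds. Thinning used 20 draws. The scripts were tested on simulated data. Work was done in Python 3.11.15 with numpy 2.4.6, pandas 2.3.3, scipy 1.17.1 and matplotlib 3.10.9.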

Additional observations from a re-analysis of the deposited data

Results flagged for a closer look

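Among day 4 wells without Gpr84, some wells lay far from the other 9. By a rule on the gap to the next well, 17 of the 61 groups of values looked at, other days included, held such a well. The rule marks about 1 in 20 groups where values are normally distributed. Several of these groups lie mostly near 0 RPM, so the 17 cannot be set against that rate. Plate 1 F1, the well with Chil3, Fn1 and Pf4, was high in Il1a (7.74 on the log2(RPM + 10) scale), in the mean of the cytokine list (7.01) and in that of the early response list (5.91), and low in Tmsb4x (11.6). Plate 1 H1, the deepest well at 8023493 reads, was high in Rock1 (5.74), Camk1 (10.2) and the fatty acid handling list (5.82). Plate 1 F5 was high in Ccl4 (9.96), plate 3 F6 in F11r (4.47), plate 2 G5 in Acer3 (3.62) and plate 2 F1 in Tnf (3.64), the last 3 at levels below 50 RPM. Plate 3 G6 was low in Fth1 (5.95), and plate 2 H2 stood apart in the interferon response list (5.61). Their causes were not tested.

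On the other days, plate 2 B2 held the highest Gpr84 of the uncrushed wells with it, at 732 RPM. At day 2, plate 1 E5 held 823 RPM of Gpr84, and plate 1 D4 had 8065036 reads.

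Wells under 50000 reads were outside the comparisons. Gpr84 reached 50 RPM in 33.3% of such day 4 wells (10 of 30), against 18.2% at day 2 (2 of 11) and 20% in uncrushed wells (3 of 15). In the median day 4 well among them 1 read was worth 504 RPM, so a single read passes the threshold.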

How the results depend on the processing

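The number of genes per well moved most counts. Against 2785 genes higher and 36 lower by 1 or more, and 23 lists with a median of at least 1, matched wells gave 1286, 695 and 5. The 5 pairs of wells within 1.5-fold in genes per well gave 1239, 741 and 6, thinning to equal genes per well gave 945, 293 and 9, and genes per well in a linear fit gave 1201, 514 and 6. A pseudocount of 50 RPM gave 957, 17 and 10, and one of 1 RPM 62 lower genes. Comparing genes with any read gave 55 lower genes and 15 lists, and the ratio of mean RPM 814 lower genes and 12 lists. Lower genes numbered 282 in plate 1 alone, 463 in plate 2 alone, 117 without plate 3 and 120 in wells with at least 5 microglia markers, an alternative chosen after seeing the data. The median of all genes, 1.10, was 2.14 and 0.49 with pseudocounts of 1 and 50 RPM and 0.70 for the ratio of means. Over the 19591 genes with any read it was 0.11, and 15% of them were higher by 1 or more.

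Signs turned for translation factors (-0.36 matched, -0.11 in pairs, -0.58 in the fit, -0.18 as a ratio of means), hypoxia and redox (-0.49, -0.40, -0.43 and -0.51) and oxidative phosphorylation (-0.14 as a ratio). Rhoa turned to -1.74 matched, -0.32 in pairs and -0.82 in the fit, and Spp1 to -1.93, -0.52 and -0.95, with -1.07 in plate 1. Lpl (-0.35) and Eif4g2 (-0.93) turned in matched wells, Icam1 (-0.054) and Eif4a1 (-0.0076) in pairs, Pfkl (-0.22), Eif4g2 (-0.020), Rpsa (-0.063) and Stmn1 (-0.77) as ratios, and Ldha (-0.027) and Eno1 (-0.92) in plate 2. The Il1a share in wells without Gpr84 was 0 in plate 2 alone and in wells with at least 5 microglia markers. The causes were not tested.

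Leaving out each well in turn gave 2660 to 3117 higher genes and 34 to 67 lower (67 without plate 3 F6), and Il1a shares of 81.8 to 90.9% with Gpr84 and 0 to 11.1% without. RPM without mitochondrial genes was not run, because no mitochondrial gene was among the rows analysed here. No paired analysis was possible because replicate numbers only name wells.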
